A study of Mus musculus with 13 samples.

Results

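Growth factor receptors, which fibroblasts make in the ER, were followed through ER stress. The receptors were taken by gene symbol and not by any measured value: Pdgfra, Egfr, Fgfr1, Igf1r, Igf2r, Insr, Met, Axl, Tgfbr1 and Tgfbr2, which are 10 of the 22406 genes of the tables. Earlier results of these data were known when the list was chosen. The data were ribosome footprints, that is, the mRNA fragments covered by ribosomes, so each value combines the amount of an mRNA with its translation. Mouse embryonic fibroblasts (MEFs) that were PERK WT or PERK −/− were left untreated (control) or treated with 1 μM thapsigargin (Tg), which empties the ER of calcium, for 1, 2, 5 or 8 h. NIH3T3 cells, a mouse fibroblast line with PERK, were untreated or had 200 nM Tg for 2 or 7 h. All 13 libraries were made without cycloheximide. The labels do not give the origin or clone of the MEFs. Each condition was 1 library, so genotype and library cannot be told apart, no difference can be set against the spread between replicates, and no p-value is given.

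Growth factor receptors are membrane proteins whose chains enter the ER during translation, where they are folded, glycosylated and given disulfide bonds before they reach the cell surface. There most of them bind growth factors outside the cell and pass the signal on inside it. In fibroblasts such receptors control growth, survival, migration and the making of matrix. PERK is a kinase of the ER membrane that lowers translation initiation when unfolded proteins build up. Met binds hepatocyte growth factor, Igf1r and Insr bind insulin-like growth factors and insulin, and Igf2r carries IGF2 and mannose 6-phosphate tagged enzymes to lysosomes. Fgfr1, Egfr and Pdgfra bind fibroblast growth factors, EGF-like factors and PDGF, Axl binds Gas6, and Tgfbr2 and Tgfbr1 together form the receptor of TGF-beta.

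The start of the coding sequence is shown for 3 receptors on which the results below turn, since it encodes the part of the chain that directs it to the ER, and since the first 30 bases were left out of the authors' counting. The capitals mark those 30 bases. The letters, 5′ to 3′ on the coding strand, came from GENCODE transcripts of GRCm38, the same assembly as mm10. The sequence of Met lies at chr6:17491241-17491330 on the forward strand and that of Igf2r at chr17:12769444-12769533 on the reverse strand, each within 1 exon. That of Axl spans 2 exons between 25787491 and 25788478 of chromosome 7 on the reverse strand.
Met: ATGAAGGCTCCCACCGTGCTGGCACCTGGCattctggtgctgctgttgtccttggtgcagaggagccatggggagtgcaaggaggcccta
Igf2r: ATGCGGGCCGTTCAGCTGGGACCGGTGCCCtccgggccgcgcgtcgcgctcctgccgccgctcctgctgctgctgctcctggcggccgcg
Axl: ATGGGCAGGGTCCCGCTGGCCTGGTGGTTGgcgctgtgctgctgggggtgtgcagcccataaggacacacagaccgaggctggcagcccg

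A hydrophobic stretch near the N terminus (mean Kyte-Doolittle hydropathy of at least 2.2 over 8 residues within the first 30) was found in 8 of the 10 receptors, against 16.8% of the expressed genes that had a coding sequence. Axl and Tgfbr2 missed that threshold, with highest values of 1.96 and 1.8. The coding sequences ran from 1512 nt in Tgfbr1 to 7452 nt in Igf2r, and the median over expressed genes was 1359 nt. The proteins encoded by them held 17 cysteines (Pdgfra) to 123 (Igf2r), where the median gene had 8. Matches to the sequence of N-linked glycan sites numbered 4 (Tgfbr1) to 24 (Igf2r), where the median was 2. Both were counted over the whole protein, including parts inside the cell, and were not scaled to its length. The receptors are thus chains longer than the median, with more cysteines and glycan matches per protein, and Igf2r is the highest of the 10 in each of these 3 measures. These counts do not show how many disulfide bonds or glycans a receptor carries.

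Igf1r, Insr and Met are made as 1 chain and then cut by convertases such as furin. Their coding sequences are shown around the match to the pattern that these enzymes read (arginine, any residue, lysine or arginine, arginine), which is marked by capitals. The match starts at residue 738 of Igf1r (chr7:68193354-68193365, forward strand, exon 11), residue 749 of Insr (chr8:3174870-3174881, reverse strand, exon 11) and residue 303 of Met (chr6:17492147-17492158, forward strand, exon 3). No such match was found in the other 7 receptors, and 27.4% of all proteins compared held at least 1. A match of letters does not show that a site is cut.
Igf1r: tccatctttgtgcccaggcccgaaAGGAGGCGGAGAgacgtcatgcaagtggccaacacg
Insr: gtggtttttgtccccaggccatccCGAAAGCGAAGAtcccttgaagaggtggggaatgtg
Met: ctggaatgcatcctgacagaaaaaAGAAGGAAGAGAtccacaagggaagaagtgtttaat

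The libraries held 2525029 to 14799515 expected counts in MEFs and 2569965 to 11121006 in NIH3T3 cells, and the limit of 3 counts was worth 0.203 to 1.19 CPM (expected counts scaled to a common library total). Atf4, a transcription factor translated when PERK is active, rose from 35.9 CPM in the WT control to between 511 and 600 CPM in Tg, and stayed between 26.6 and 64.0 CPM in PERK −/− MEFs. Untreated NIH3T3 cells had 202 CPM of it, and treated cells 1835 and 597 CPM at 2 and 7 h. The CPM of Ddit3, a target of Atf4, went from 6.86 to between 127 and 282 in treated WT MEFs and lay between 3.12 and 7.09 in all PERK −/− libraries. The ER chaperone Hspa5 had 2760 CPM in the WT control and 5391 to 14739 CPM in Tg, 3338 and then 4094 to 8827 CPM in PERK −/− MEFs, and 4398 and then 12056 and 27080 CPM in NIH3T3 cells. Eif2ak3, which encodes PERK, still gave footprints in all PERK −/− libraries, and its level did not separate the genotypes on both scales. By CPM, PERK −/− had less than WT in the control and at each Tg time (7.64 to 19.1, against 14.4 to 33.3 in WT). In TPM it was 6.03 in the WT control and 8.49, 6.2, 13.98 and 15.7 in Tg, and 11.2 in the PERK −/− control and 7.32, 5.21, 14.9 and 17.2 in Tg, so PERK −/− was higher in the control and at 5 and 8 h. The genotype is therefore given as the labels have it. Of 8 fibroblast markers, all were at 2 TPM or more in the 10 MEF libraries and 7 in the NIH3T3 libraries. The summed TPM of the 5 endothelial markers was at most 0.32 in MEFs and 3.35 in NIH3T3 cells. That of the 6 epithelial markers was at most 17.7 and 35.7, and that of the 5 haematopoietic markers at most 11.04 and 10.1.

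The levels of the receptors differed widely. In TPM, which is per length of coding sequence and can therefore be ordered between genes, Axl was the highest in each of the 13 libraries, with 205 TPM in the WT control, 172 in the PERK −/− control and 275 in the NIH3T3 control. It made up 46.6% of the summed 440 TPM of the 10 receptors in untreated WT MEFs. Igf2r came next in all libraries but PERK −/− at 8 h, where Fgfr1 (29.0 TPM) and Igf2r (27.9 TPM) did not differ beyond their counting intervals. In the WT control, the order then was Fgfr1 (57.2 TPM), Igf1r (25.03), Met (24.1), Tgfbr1 (18.5), Egfr (16.02), Tgfbr2 (12.2), Insr (6.89) and Pdgfra (0.27). Here Igf1r and Met did not differ beyond their counting intervals, and neither did Tgfbr1 and Egfr. In the PERK −/− control, Fgfr1 (28.7 TPM) was followed by Igf1r (22.5), Tgfbr2 (22.2), Tgfbr1 (19.2) and Met (16.7), and each neighbouring pair from Igf1r to Met overlapped. Then came Egfr (12.5), Pdgfra (8.26) and Insr (7.17), the last pair overlapping.

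In untreated NIH3T3 cells, whose values come from a table made separately from that of the MEFs, the order after Axl and Igf2r (53.8 TPM) was Igf1r (34.7), Met (27.9), Tgfbr2 (16.2), Pdgfra (13.2), Fgfr1 (8.89), Tgfbr1 (6.49), Insr (4.5) and Egfr (0.12). No pair of neighbours overlapped. Egfr had 3, 1 and 1 expected counts in the NIH3T3 libraries, at or under the limit of 3 counts. Its mean there was under 2 TPM, so it was not among the genes tested and no change is given for it. Pdgfra, a receptor that is widely used to mark fibroblasts, was under 4 TPM in all 5 WT libraries. The list is thus not present in full in each of these fibroblasts: 10 of 10 receptors had a mean of at least 2 TPM over the MEF libraries and 9 of 10 over the NIH3T3 libraries, but WT MEFs had little Pdgfra and NIH3T3 cells had next to no Egfr. Pdgfra reached that mean through the PERK −/− libraries.

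**Figure D1:**
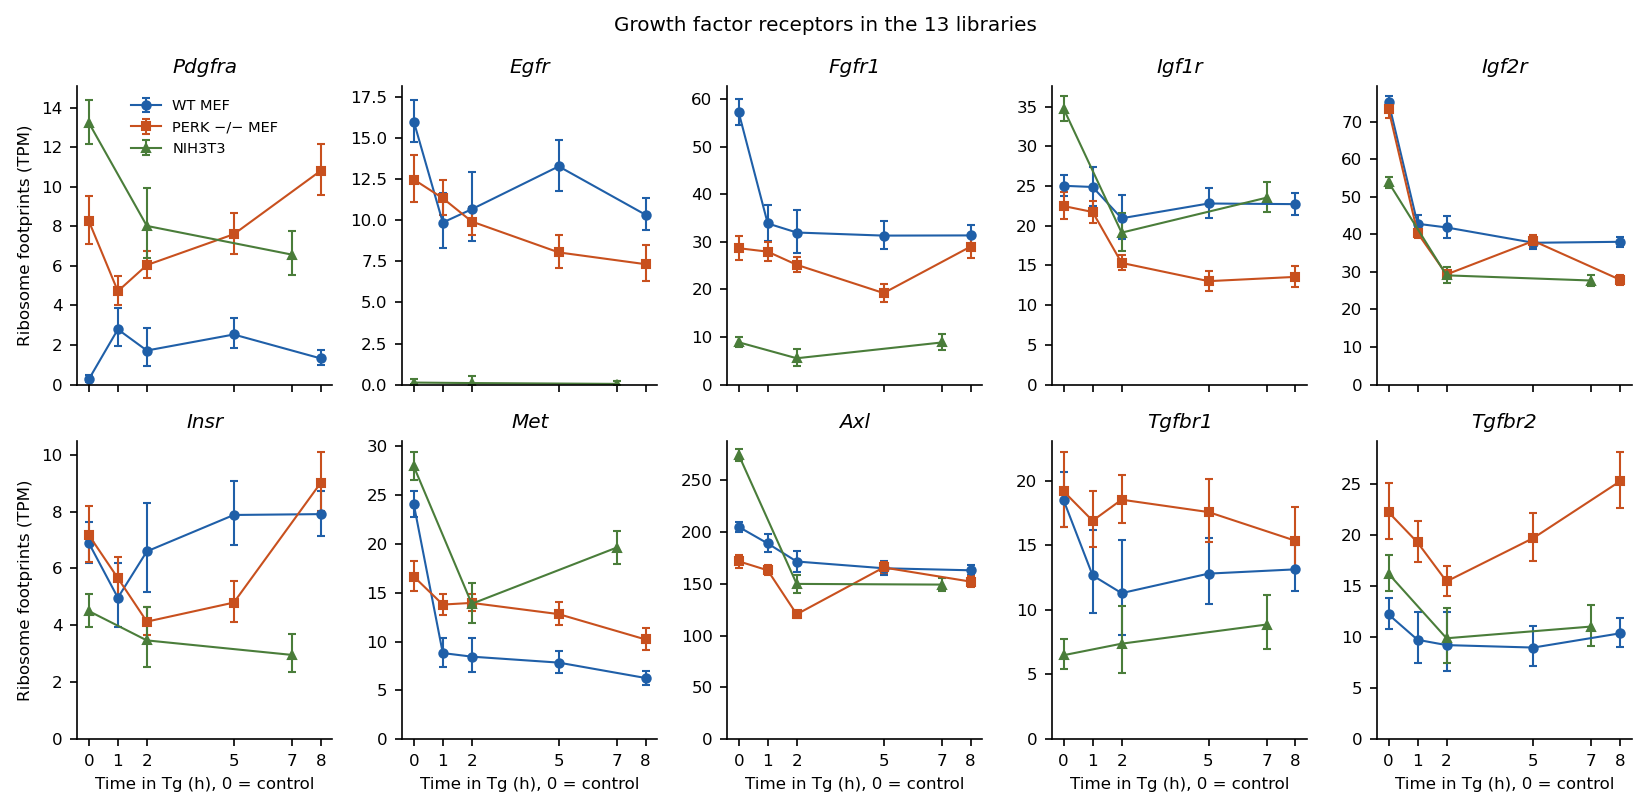
Ribosome footprints (TPM) of the 10 receptors against the time in Tg, with 0 for the control, in WT MEFs (circles), PERK −/− MEFs (squares) and NIH3T3 cells (triangles). Bars are 95% counting intervals of 1 library each. Met falls from 24.1 to between 6.26 and 8.82 TPM in treated WT MEFs, and Igf2r falls in all 3 cell types.

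A change was the log2 ratio of TPM to the control of the same genotype or cell line, with values under 4 TPM raised to 4, over the 10432 (MEF) or 10117 (NIH3T3) genes with a mean of at least 2 TPM. A gene was called at 2-fold or more. Beside it stands the 95% interval of the ratio of expected counts per library total (exact, Clopper-Pearson), which covers counting error only. TPM gives shares of a library, so a fall is relative to the other genes, and in these bulk samples fewer cells that make a receptor and less of its RNA per cell cannot be told apart. All Tg libraries of a genotype are compared with the same control, so an error in that control would enter each of them. The words rose and fell are used of a gene whose interval lies wholly on 1 side of no change.

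Tg left most receptors lower, but few by 2-fold. In WT MEFs, 9, 9, 8 and 8 of the 10 receptors were below the control at 1, 2, 5 and 8 h (all genes tested: 44.7%, 42.7%, 41.4% and 41.1%), and 1 receptor, Met, was at least 2-fold lower each time. Of all genes, 2.29%, 4.01%, 3.55% and 3.87% were at least 2-fold lower. In PERK −/− MEFs, 10, 10, 10 and 6 of 10 were below the control (all genes: 55.7%, 58.4%, 48.3% and 40.1%), with Igf2r at least 2-fold lower at 2 and 8 h and none at 1 and 5 h (all genes: 3.38%, 5.78%, 4.77% and 2.73%). In NIH3T3 cells, 8 of 9 were below the control at both times (all genes: 58.8% and 49.6%), and Met at 2 h and Pdgfra at 7 h were just past 2-fold (all genes: 3.76% and 8.06%). No receptor was at least 2-fold higher in any of the 10 Tg libraries, whereas 4.33%, 5.66%, 5.86% and 6.45% of all genes were in WT MEFs, 0.719%, 0.623%, 3.26% and 3.28% in PERK −/− MEFs, and 5.76% and 7.01% in NIH3T3 cells. A single called receptor of 9 or 10 is too small a count to read against these shares. The sign of small changes was not firm: at 1 h in PERK −/− MEFs, 5 of the 10 receptors (Axl, Egfr, Fgfr1, Igf1r and Tgfbr2) changed sign in at least 1 other setting, against at most 2 in any other Tg library.

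At 1.5-fold, the number of lower receptors grew to 4, 5, 3 and 4 of 10 in WT MEFs (10.2%, 12.3%, 11.6% and 12.0% of all genes), to 2, 2, 3 and 4 in PERK −/− MEFs (13.4%, 18.8%, 12.8% and 8.24%) and to 7 and 3 of 9 in NIH3T3 cells (18.2% and 20.1%). In WT MEFs these were Met, Fgfr1 and Igf2r at every time, joined by Egfr at 1, 2 and 8 h and by Tgfbr1 at 2 h. In PERK −/− MEFs Igf2r was among them at every time, with Pdgfra at 1 h, Insr at 2 h, Egfr and Igf1r at 5 h, and Egfr, Igf1r and Met at 8 h. Igf2r thus passed 1.5-fold in all 8 treated MEF libraries, and Met and Egfr in both genotypes at 8 h.

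The medians of the list were moderately below 0. The median log2 change of the 10 receptors was −0.51, −0.50, −0.38 and −0.41 in WT MEFs at 1, 2, 5 and 8 h, against 0.00, 0.00, 0.00 and 0.01 over all genes tested. In PERK −/− MEFs it was −0.19, −0.48, −0.48 and −0.25, against −0.06, −0.11, 0.00 and 0.04. In NIH3T3 cells it was −0.72 at 2 h and −0.55 at 7 h, against −0.13 and 0.00. Relative to the median of all genes, the receptors' median was −0.59 in NIH3T3 cells and −0.37 in PERK −/− MEFs at 2 h, the libraries in which all genes shifted by more than 0.1. On expected counts per library total, with no floor, the medians were −0.46, −0.37, −0.36 and −0.33 in WT, −0.11, −0.39, −0.44 and −0.26 in PERK −/− MEFs, and −0.60 and −0.60 in NIH3T3 cells. Over all genes, the medians on that scale were 0.04, 0.07, 0.09 and 0.10 in WT, −0.08, −0.11, 0.00 and 0.07 in PERK −/− MEFs, and −0.06 and −0.10 in NIH3T3 cells. The receptors' median at 1 h in PERK −/− MEFs depended on the scaling: it was −0.04 with TMM factors, which raise that library's ratios by 0.08 relative to library totals.

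The counting interval lay below no change for 7, 7, 6 and 7 of 10 receptors in WT MEFs (all genes: 23.3%, 22.2%, 26.6% and 29.0%), for 4, 8, 6 and 6 in PERK −/− MEFs (32.9%, 37.5%, 30.1% and 22.8%) and for 7 of 9 at both times in NIH3T3 cells (29.1% and 41.2%). It lay above no change for 1 receptor, Pdgfra, in the 4 treated WT libraries (28.4%, 28.6%, 35.4% and 40.4% of all genes), and for 2, Pdgfra and Insr, in PERK −/− MEFs at 8 h (31.7%). A counting interval narrows as counts grow, and counts were not matched between the receptors and all genes. Part of the distance between these shares may thus come from depth. Together, the 10 receptors summed to 440 TPM in the WT control and to between 305 and 339 TPM in Tg, to 382 and then 258 to 325 TPM in PERK −/− MEFs, and to 440 and then 246 and 258 TPM in NIH3T3 cells. The sum was thus lower than the control in each of the 10 Tg libraries.

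The receptors can also be set beside other genes whose proteins have a hydrophobic stretch near the N terminus, as defined above. That is a rough mark of chains that enter the ER and not a call of signal peptides, since Axl and Tgfbr2 missed it themselves. Of the genes other than these 10 that encode a hydrophobic N terminus (1675 in MEFs and 1540 in NIH3T3 cells), 3.70%, 6.33%, 6.69% and 7.64% were at least 2-fold lower in WT MEFs, 5.43%, 13.1%, 8.54% and 5.67% in PERK −/− MEFs, and 7.14% and 13.4% in NIH3T3 cells. Their median changes were −0.03, −0.08, 0.00 and 0.00 in WT MEFs, −0.23, −0.39, −0.06 and 0.07 in PERK −/− MEFs, and −0.28 and −0.18 in NIH3T3 cells. The receptors' median was below that of these genes in all Tg libraries but PERK −/− at 1 h, a description of 9 or 10 genes that were chosen by name. The fibroblast markers, which include secreted collagens, had medians below 0 as well (8 tested in MEFs, 7 in NIH3T3 cells). Their median change was between −0.51 and −0.31 in WT MEFs, between −1.36 and −0.38 in PERK −/− MEFs, and −0.85 and −1.13 in NIH3T3 cells. In each Tg library 1 to 3 of these markers were above the control. Their part in the receptors' change was not tested.

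**Figure D2:**
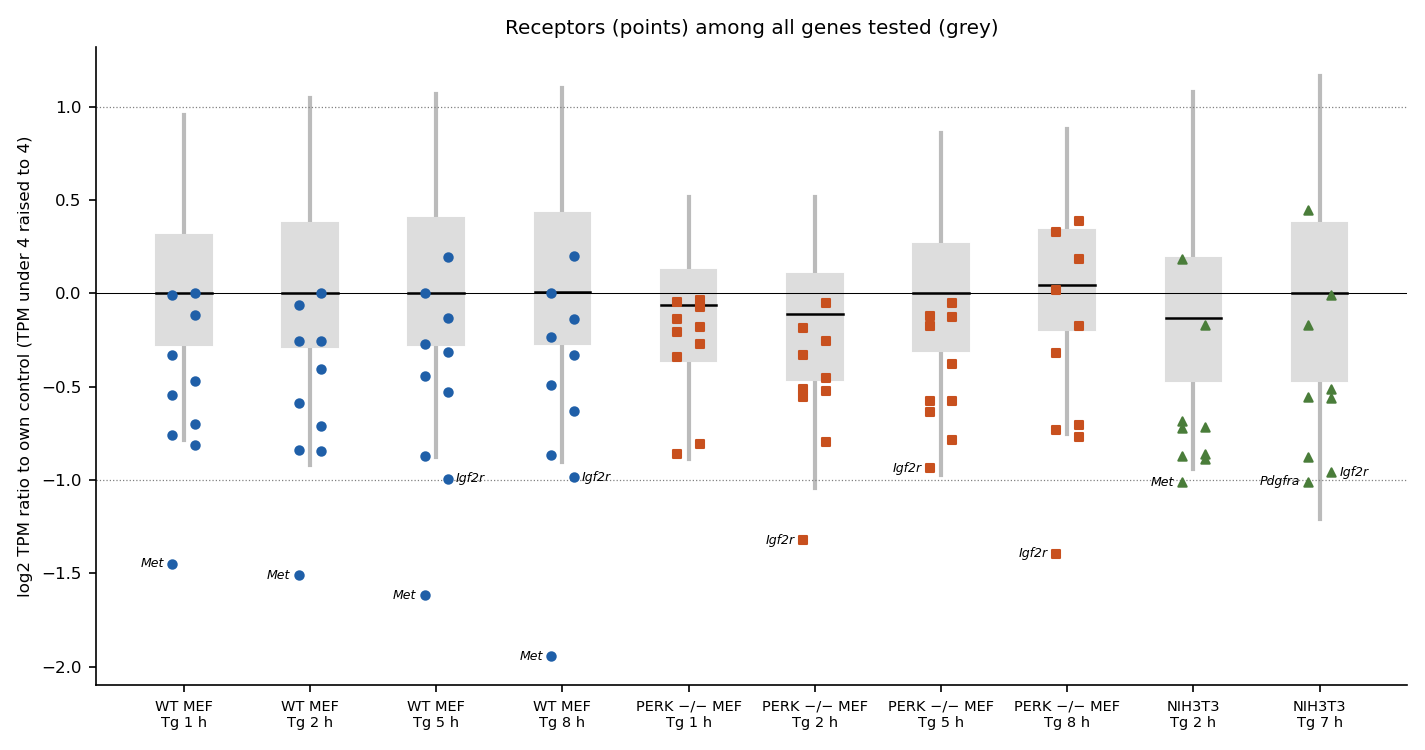
Log2 change of each receptor tested (points) in the 10 Tg libraries, against the control of the same genotype or cell line, with TPM under 4 raised to 4. Grey boxes span the quartiles of all genes tested, grey lines the 5th to the 95th percentile and black bars the median. Dotted lines mark 2-fold. Receptors past −0.9 are named. Met stands lowest in WT MEFs, from −1.45 to −1.94, and Igf2r in PERK −/− MEFs, from −0.86 to −1.39.

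Met had the largest fall of the receptors in WT MEFs. The gene spans 17463800 to 17573980 of chromosome 6 (mm10, forward strand). It had 24.1 TPM in the WT control and 8.82, 8.45, 7.84 and 6.26 TPM at 1, 2, 5 and 8 h (1261, 141, 94, 191 and 304 expected counts). All 4 Tg libraries thus lay far below the control, and the one at 8 h was the lowest. The log2 changes were −1.45, −1.51, −1.62 and −1.94, that is, 0.37, 0.35, 0.33 and 0.26 of the control. The counting intervals were, in order of time, −1.70 to −1.18, −1.82 to −1.20, −1.86 to −1.41 and −2.14 to −1.77, so the fall at 8 h was larger than at 1 h beyond counting error.

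In PERK −/− MEFs Met fell less. It had 16.7 TPM in the control and 13.8, 13.96, 12.8 and 10.2 TPM in Tg. The untreated PERK −/− library was itself below the untreated WT library, with a log2 difference of −0.53 (interval −0.70 to −0.39). The changes in Tg were −0.27, −0.26, −0.38 and −0.71, and their counting intervals lay above those of WT at all 4 times. Met was thus lower in the PERK −/− than in the WT control and higher in PERK −/− than in WT MEFs at all 4 Tg times. In NIH3T3 cells Met had 27.9 TPM when untreated and 13.9 and 19.6 TPM at 2 and 7 h, with log2 changes of −1.01 and −0.51. The fall at 2 h was on the edge of 2-fold, at −0.88 on expected counts per library total (interval −1.11 to −0.66).

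Of the receptors for insulin-like factors, Igf2r was lower in every Tg library. It spans 12682406 to 12769664 on the reverse strand of chromosome 17. Its level was 75.2 TPM in the WT control and 42.8, 41.8, 37.7 and 38.0 TPM at 1, 2, 5 and 8 h. PERK −/− MEFs had 73.2 TPM in the control and 40.4, 29.3, 38.2 and 27.9 TPM in Tg. NIH3T3 cells had 53.8 TPM in the control and 29.1 and 27.7 TPM at 2 and 7 h. The untreated MEFs of the 2 genotypes did not differ beyond the counting interval (−0.10 to 0.01), and none of the treated libraries came near its control.

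The log2 changes of Igf2r were −0.81, −0.85, −0.99 and −0.98 in WT MEFs, −0.86, −1.32, −0.94 and −1.39 in PERK −/− MEFs, and −0.89 and −0.96 in NIH3T3 cells. The values at 5 and 8 h in WT lie just inside 2-fold and pass it with TMM factors (−1.07 and −1.08). The counting intervals of the genotypes overlapped at 1 and 5 h, and PERK −/− was lower at 2 h (−1.31 to −1.18, against −0.94 to −0.74 in WT) and at 8 h (−1.49 to −1.32, against −1.04 to −0.92). Igf2r thus fell further without PERK at 2 and 8 h, unlike Met, and did not differ between genotypes beyond counting error at 1 and 5 h.

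Igf1r, on chromosome 7 from 67952827 to 68233668, changed little in WT MEFs. Its level was 25.03 TPM in the control and 24.9, 20.9, 22.8 and 22.7 TPM in Tg, with log2 changes of −0.01, −0.26, −0.13 and −0.14. Without PERK it went from 22.5 TPM to 21.7, 15.3, 13.02 and 13.6 TPM, with changes of −0.05, −0.55, −0.79 and −0.73. The 1 h library was close to its control, and the 3 later libraries lay well below it. The genotypes' intervals did not overlap at 5 h (−0.28 to 0.01 in WT, −1.01 to −0.66 in PERK −/−) and 8 h (−0.25 to −0.02 and −0.94 to −0.59). In NIH3T3 cells Igf1r had 34.7 TPM when untreated and 19.1 and 23.5 TPM at 2 and 7 h, changes of −0.86 and −0.56.

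The related Insr was among the least abundant receptors, with 9.01 TPM at most. It had 6.89 TPM in the WT control and 4.97, 6.60, 7.88 and 7.91 TPM in Tg, and 7.17 TPM in the PERK −/− control and 5.66, 4.13, 4.80 and 9.01 TPM in Tg. In NIH3T3 cells it had 4.5, 3.47 and 2.96 TPM. In WT MEFs only the 1 h library lay below the control beyond counting error. In PERK −/− MEFs the libraries at 1, 2 and 5 h lay below it (−0.34, −0.80 and −0.58) and the 8 h library above it (0.33, interval of counts 0.06 to 0.58). Of the 3 receptors with a convertase match, Met thus fell most in WT MEFs, whereas Igf1r and Insr did not pass 1.5-fold there.

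Fgfr1, on chromosome 8 from 25513654 to 25575718, fell in WT MEFs and started lower in PERK −/− MEFs. It had 57.2 TPM in the WT control and 33.9, 32.0, 31.3 and 31.4 TPM at 1, 2, 5 and 8 h, so that the 4 Tg libraries lay close together. The log2 changes were −0.76, −0.84, −0.87 and −0.87 (count intervals from −1.08 at the lowest bound to −0.54 at the highest). PERK −/− MEFs had 28.7 TPM in the control and 27.96, 25.2, 19.3 and 29.02 TPM in Tg. Only the 5 h library there lay below the control beyond counting error (−0.58, count interval −0.71 to −0.32).

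The untreated PERK −/− library thus held Fgfr1 at about the level of the treated WT libraries, with a log2 difference from untreated WT of −0.997 (count interval −1.14 to −0.85), and of −1.12, past 2-fold, with TMM factors. At 8 h of Tg the levels were 31.4 TPM in WT and 29.0 TPM in PERK −/− MEFs. The changes did not overlap at any of the 4 times, with WT lower. The controls themselves differed by about 2-fold. Whether the lower starting level bears on the smaller change in PERK −/− MEFs was not tested. In NIH3T3 cells Fgfr1 had 8.89 TPM in the control and 5.53 and 8.85 TPM at 2 and 7 h, from 251, 40 and 118 expected counts.

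Egfr, on chromosome 11 from 16752203 to 16918158, had 16.02 TPM in the WT control and 9.87, 10.7, 13.3 and 10.3 TPM in Tg. Without PERK its level was lower at each later time, from 12.5 TPM to 11.35, 9.93, 8.05 and 7.33 TPM. The log2 changes were −0.70, −0.58, −0.27 and −0.63 in WT and −0.14, −0.33, −0.63 and −0.77 in PERK −/− MEFs. On expected counts per library total the WT changes were smaller (−0.47, −0.36, −0.05 and −0.41). The intervals of the genotypes overlapped at all 4 times.

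Pdgfra, on chromosome 5 from 75152292 to 75198215, separated the genotypes before any treatment. It had 0.27 TPM in the WT control (11 expected counts) and 8.26 TPM in the PERK −/− control (191 counts), a log2 difference of 4.95 in counts (interval 4.07 to 5.97). With TPM under 4 raised to 4, the difference was 1.05 (0.98 with TMM factors), and Pdgfra was the 1 receptor at least 2-fold higher in the untreated PERK −/− library (6.04% of all genes), where none was at least 2-fold lower (1.97% of all genes). Pdgfra passed the filter on mean TPM through the PERK −/− libraries, where it was high. Its calls as higher in PERK −/− MEFs, here and at 8 h, thus follow in part from that filter and are no support for a difference. At 1.5-fold, Pdgfra and Tgfbr2 were the 2 higher receptors (16.1% of all genes) and Fgfr1 the 1 lower (5.32%). In treated WT MEFs Pdgfra had 2.79, 1.72, 2.53 and 1.32 TPM, all above the control and all under 4 TPM. The ratio at 1 h was 10.5-fold (interval 5.23 to 23.0) from 11 and 35 counts, and it counts as no change under the floor of 4 TPM. The treated PERK −/− libraries had 4.72, 6.04, 7.6 and 10.8 TPM, first below and at 8 h above their control. In NIH3T3 cells it went from 13.2 TPM to 8.02 at 2 h and 6.57 at 7 h (−0.72 and −1.01).

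Axl, the most abundant receptor, is on the reverse strand of chromosome 7, from 25757273 to 25788705. It had 205 TPM in the WT control and 189, 172, 165 and 163 TPM in Tg, and 172 TPM in the PERK −/− control and 163, 121, 166 and 152 TPM in Tg. The changes were −0.12, −0.26, −0.31 and −0.33 in WT and −0.07, −0.51, −0.05 and −0.17 in PERK −/− MEFs, so in MEFs Axl stayed within 1.5-fold of its control. In NIH3T3 cells it fell from 275 TPM to 150 TPM at 2 h and 149 TPM at 7 h, changes of −0.87 and −0.88 (count intervals −0.84 to −0.67 and −0.91 to −0.78). The fall in NIH3T3 cells was larger than that of any MEF library, beyond the counting intervals, but dose, cell line and table differ between them.

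Of the 2 chains of the TGF-beta receptor, Tgfbr2 differed in level between the untreated genotypes and Tgfbr1 did not beyond counting error. Tgfbr2, the chain that binds TGF-beta first, had 12.2 TPM in the WT control and 9.73, 9.21, 8.97 and 10.4 TPM in Tg. PERK −/− MEFs had 22.2 TPM in the control and 19.3, 15.45, 19.7 and 25.3 TPM in Tg. PERK −/− was above WT in each of the 5 pairs of libraries. The log2 difference of the untreated libraries was 0.86 (count interval 0.59 to 1.10), and Tgfbr2 was past 2-fold at 5 h, where it was the 1 receptor so called (8.54% of all genes), and at 8 h, beside Pdgfra (10.1% of all genes). Tgfbr1, the chain that signals, had 18.5 TPM in the WT control and 12.7, 11.3, 12.8 and 13.1 TPM in Tg. The same libraries without PERK had 19.2 TPM and 16.9, 18.5, 17.6 and 15.3 TPM. The controls were alike within counting error (−0.23 to 0.32), and the WT libraries in Tg lay lower, with changes of −0.54, −0.71, −0.53 and −0.49, against −0.18, −0.05, −0.13 and −0.32 in PERK −/− MEFs. The counting intervals of the genotypes' Tgfbr1 changes overlapped at 1, 5 and 8 h, and WT was lower beyond them at 2 h alone. On expected counts per library total, the changes at 8 h were −0.38 in WT and −0.34 in PERK −/− MEFs. At 8 h the WT change of Tgfbr1 was 0.03 when counts were thinned to the smallest library. In NIH3T3 cells Tgfbr1 was the 1 receptor above its control at both times, with 6.49 TPM untreated and 7.38 and 8.86 TPM in Tg, within counting error, while Tgfbr2 fell from 16.2 to 9.88 and 11.03 TPM.

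Set side by side, the genotypes' changes did not overlap in their counting intervals for 3, 7, 6 and 5 receptors at 1, 2, 5 and 8 h. WT was lower for 2, 3, 3 and 2 of the 10, with Met and Fgfr1 among them at every time, Tgfbr1 at 2 h and Axl at 5 h. PERK −/− was lower for 1, 4, 3 and 3, with Pdgfra at every time, Igf2r at 2 and 8 h, Insr at 2 and 5 h, Igf1r at 5 and 8 h, and Axl at 2 h. Over all genes tested, WT was lower for 15.8%, 17.1%, 19.8% and 21.1%, and PERK −/− was lower for 24.4%, 27.4%, 25.6% and 23.2%. These shares too depend on the number of counts, which was not matched. The receptors divide in both directions, as all genes do, and the difference between genotypes was not tested.

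**Figure D3:**
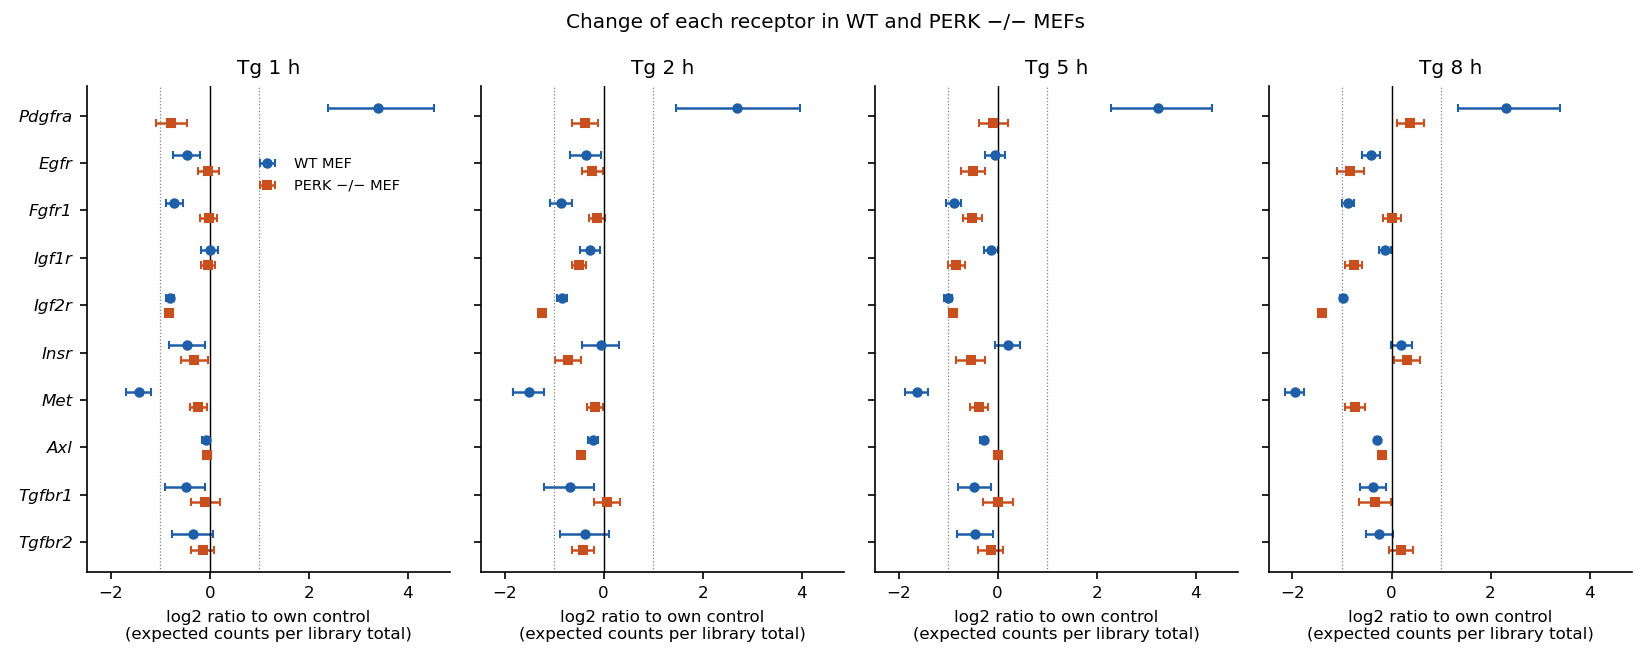
Log2 ratio of the expected counts per library total to the control of the same genotype, for each receptor in WT (circles) and PERK −/− MEFs (squares) at 1, 2, 5 and 8 h of Tg. Bars are exact 95% counting intervals and dotted lines mark 2-fold. The points of Met and Fgfr1 lie further left in WT at every time, and those of Pdgfra further right, from 11 expected counts in the WT control.

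The time courses differed in shape. Between neighbouring Tg times, the median absolute log2 difference of the receptors was 0.14 from 1 to 2 h, 0.14 from 2 to 5 h and 0.05 from 5 to 8 h in WT MEFs, against 0.27, 0.20 and 0.10 over all genes. The WT values of the receptors were thus below those of all genes, and below the receptors' change from the control to 1 h. Absolute differences include counting error, which is larger for genes with few counts. Counts were not matched, so these values do not show that the receptors were steadier than other genes. In PERK −/− MEFs the values were 0.34, 0.28 and 0.35, against 0.19, 0.42 and 0.32 over all genes, with the largest step for Insr from 5 to 8 h (0.86). In NIH3T3 cells the value from 2 to 7 h was 0.19, against 0.41 over all genes.

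The other receptor tyrosine kinases had medians near 0 in WT MEFs. Of 51, 22 were tested in MEFs, with medians of 0.02, 0.07, 0.00 and 0.00 in WT. There 3, 2, 4 and 4 were at least 2-fold lower (all genes: 2.29%, 4.01%, 3.55% and 3.87%). At least 2-fold higher were 0, 1, 1 and 1 (all genes: 4.33%, 5.66%, 5.86% and 6.45%). In PERK −/− MEFs, 2, 6, 7 and 4 were at least 2-fold lower (all genes: 3.38%, 5.78%, 4.77% and 2.73%). None was at least 2-fold higher (all genes: 0.719%, 0.623%, 3.26% and 3.28%), and the medians were −0.47, −0.60, −0.44 and −0.18. Epha2, an ephrin receptor, went from 84.0 TPM to 69.2, 94.4, 58.7 and 56.8 TPM in WT and from 73.5 TPM to 52.6, 27.7, 21.8 and 22.2 TPM in PERK −/− MEFs. Ptk7, a pseudokinase of Wnt signalling, fell in both, from 85.7 to between 37.9 and 43.7 TPM and from 86.5 to between 29.3 and 47.1 TPM. Flt1, a receptor of VEGF, had 64.1 TPM in the WT control against 14.0 TPM in the PERK −/− control, and 31.0 and 8.49 TPM at 8 h.

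The other receptors of the TGF-beta family, of which 8 of 12 were tested, had medians of −0.54, −0.45, −0.40 and −0.51 in WT and 0.00, −0.16, 0.24 and −0.08 in PERK −/− MEFs. With TPM under 4 raised to 4, none was 2-fold lower in WT MEFs (all genes: 2.29%, 4.01%, 3.55% and 3.87%). In PERK −/− MEFs 1, Tgfbr3, was at 5 h (all genes: 4.77%). Bmpr1a, a BMP receptor, fell from 29.95 TPM to between 16.9 and 19.8 TPM in WT and rose from 30.4 to 45.1 and 49.5 TPM at 5 and 8 h in PERK −/− MEFs, below 2-fold in both. Tgfbr3, a co-receptor of TGF-beta, had 6.68 TPM in the WT control and 5.04, 2.36, 2.67 and 2.61 TPM in Tg. The floor of 4 TPM holds its WT change at −0.74 from 2 h on, whereas on expected counts it was −1.49, −1.32 and −1.35 (interval at 8 h −1.75 to −0.97). In PERK −/− MEFs Tgfbr3 had 18.9 TPM in the control and 12.7, 10.4, 8.63 and 16.9 TPM in Tg (−1.13 at 5 h). It thus fell in both genotypes, and the WT library at 1 h and the PERK −/− library at 8 h were within counting error of their controls. Acvr1, another BMP receptor, had 42.7, 27.4, 49.0, 48.6 and 40.9 TPM in WT MEFs, below the control at 1 h alone beyond counting error.

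Among the ligands, 16 of 25 were tested in MEFs. At 5 and 8 h, 4 and 3 were at least 2-fold lower in WT MEFs (all genes: 3.55% and 3.87%) and 6 and 4 in PERK −/− MEFs (4.77% and 2.73%). At least 2-fold higher were 2 and 2 in WT (5.86% and 6.45%) and 1 and 1 in PERK −/− MEFs (3.26% and 3.28%). Hbegf, a ligand of Egfr, fell from 213 to 49.3 TPM at 8 h in WT (−2.11) and from 150 to 26.1 TPM in PERK −/− MEFs (−2.52), but in NIH3T3 cells, where Egfr was nearly absent, it rose from 19.0 to 70.1 TPM at 2 h and 40.6 TPM at 7 h. Tgfb2, a ligand of Tgfbr2, went the other way in MEFs, from 18.9 to 50.6 TPM at 8 h in WT (1.42) and from 19.8 to 42.6 TPM in PERK −/− MEFs (1.11), and from 2.04 to 10.1 TPM at 7 h in NIH3T3 cells. Igf2, which Igf2r removes from the medium, rose from 28.3 TPM to between 50 and 61.8 TPM in treated WT MEFs (1.13 at 8 h). In PERK −/− MEFs Igf2 fell from 22.3 TPM to 11.5, 11.6 and 8.68 TPM at 1, 2 and 5 h (−0.95, −0.95 and −1.36) and had 24.8 TPM at 8 h, within counting error of the control.

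The IGF-binding proteins, which hold insulin-like factors outside the cell, had medians of −0.35, 0.22, 0.48 and 0.87 in WT and −0.68, −0.64, −0.10 and 0.66 in PERK −/− MEFs (6 of 7 tested). At 8 h, 2 of 6 were at least 2-fold higher in WT (all genes: 6.45%) and none in PERK −/− MEFs (3.28%). Igfbp2 had 109 TPM in the WT control and 201 TPM at 8 h, against 23.6 and 41.4 TPM in PERK −/− MEFs. Igfbp5 went from 6.91 to 16.7 TPM and from 28.6 to 52.0 TPM, and Igfbp6 from 21.8 to 32.0 TPM and from 43.4 to 71.6 TPM. These 3 binding proteins were thus above the control at 8 h in both genotypes, where Igf2r was low.

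The 31 transducers that act inside the cell, and are not made in the ER, had smaller median changes than the receptors in MEFs. Their medians were −0.10, −0.10, −0.16 and −0.13 in WT and −0.04, −0.14, 0.00 and 0.10 in PERK −/− MEFs, and −0.54 and −0.38 in NIH3T3 cells. At most 1 of them was at least 2-fold lower in any MEF Tg library, where 2.29% to 5.78% of all genes were. In NIH3T3 cells 3 and 7 were at least 2-fold lower (all genes: 3.76% and 8.06%). Irs2, an adaptor of Igf1r and Insr, rose from 6.20 to 15.8, 25.9, 19.9 and 21.5 TPM in WT MEFs and had 7.20, 5.23, 5.13, 7.54 and 7.65 TPM in PERK −/− MEFs. Akt1 went from 83.5 TPM to 36.8 TPM at 2 h and 46.1 TPM at 8 h in WT (−1.18 and −0.86) and from 83.6 to 60.6 TPM at 8 h in PERK −/− MEFs. Shc1, another adaptor, went from 33.7 to 61.4 TPM in WT at 8 h, and from 56.7 to 27.7 TPM at 5 h and 58.5 TPM at 8 h in PERK −/− MEFs.

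The inhibitors of receptor signalling had lower medians late in WT MEFs, with values of −0.03, −0.18, −0.67 and −0.67 over 19 genes. Of these, 0, 3, 4 and 5 were at least 2-fold lower (all genes: 2.29%, 4.01%, 3.55% and 3.87%). At least 2-fold higher were 1, 3, 3 and 3 (all genes: 4.33%, 5.66%, 5.86% and 6.45%). In PERK −/− MEFs the medians were −0.01, −0.18, −0.24 and −0.14. There 0, 3, 4 and 2 were at least 2-fold lower (all genes: 3.38%, 5.78%, 4.77% and 2.73%) and none higher (0.719%, 0.623%, 3.26% and 3.28%). Rasa1, which switches off Ras, fell from 65.4 to 21.0 TPM at 8 h in WT MEFs (−1.64), to about the level of the untreated PERK −/− library (22.7 TPM), where it had 22.3 TPM at 8 h. Errfi1, an inhibitor of Egfr, went from 42.1 to 15.3 TPM in WT and from 19.0 to 10.03 TPM in PERK −/− MEFs at 8 h, and rose from 9.12 to 21.8 TPM at 7 h in NIH3T3 cells. Dusp6, a phosphatase of ERK, had 37.2, 73.1, 24.1, 14.5 and 14.2 TPM in WT MEFs and 18.2, 15.8, 4.89, 2.55 and 8.52 TPM in PERK −/− MEFs.

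The enzymes that cut receptors and their ligands were lower in Tg, with medians of −0.25, −0.85, −0.82 and −0.69 in WT and −0.56, −0.37, −0.56 and −0.26 in PERK −/− MEFs (5 of 6 tested). Furin, a convertase that cuts the precursors of Met, Igf1r and Insr at sites of the kind shown above, fell from 48.7 to 41.0, 26.0, 16.9 and 16.4 TPM in WT (−0.25, −0.90, −1.53 and −1.57) and from 61.0 to 28.1, 19.5, 23.8 and 23.3 TPM in PERK −/− MEFs (−1.12, −1.64, −1.36 and −1.39). It was low in both genotypes at 8 h, while Met fell further in WT. A link between Furin and the footprints of Met was not tested. Adam10, a protease that sheds receptors from the surface, went from 89.9 to 37.1 TPM at 8 h in WT (−1.28), from 89.8 to 74.9 TPM in PERK −/− MEFs (−0.26) and from 59.0 to 28.2 TPM at 7 h in NIH3T3 cells (−1.07). Adam17, which sheds ligands of Egfr, went from 32.1 to 19.9 TPM in WT and from 34.6 to 32.1 TPM in PERK −/− MEFs at 8 h.

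**Figure D4:**
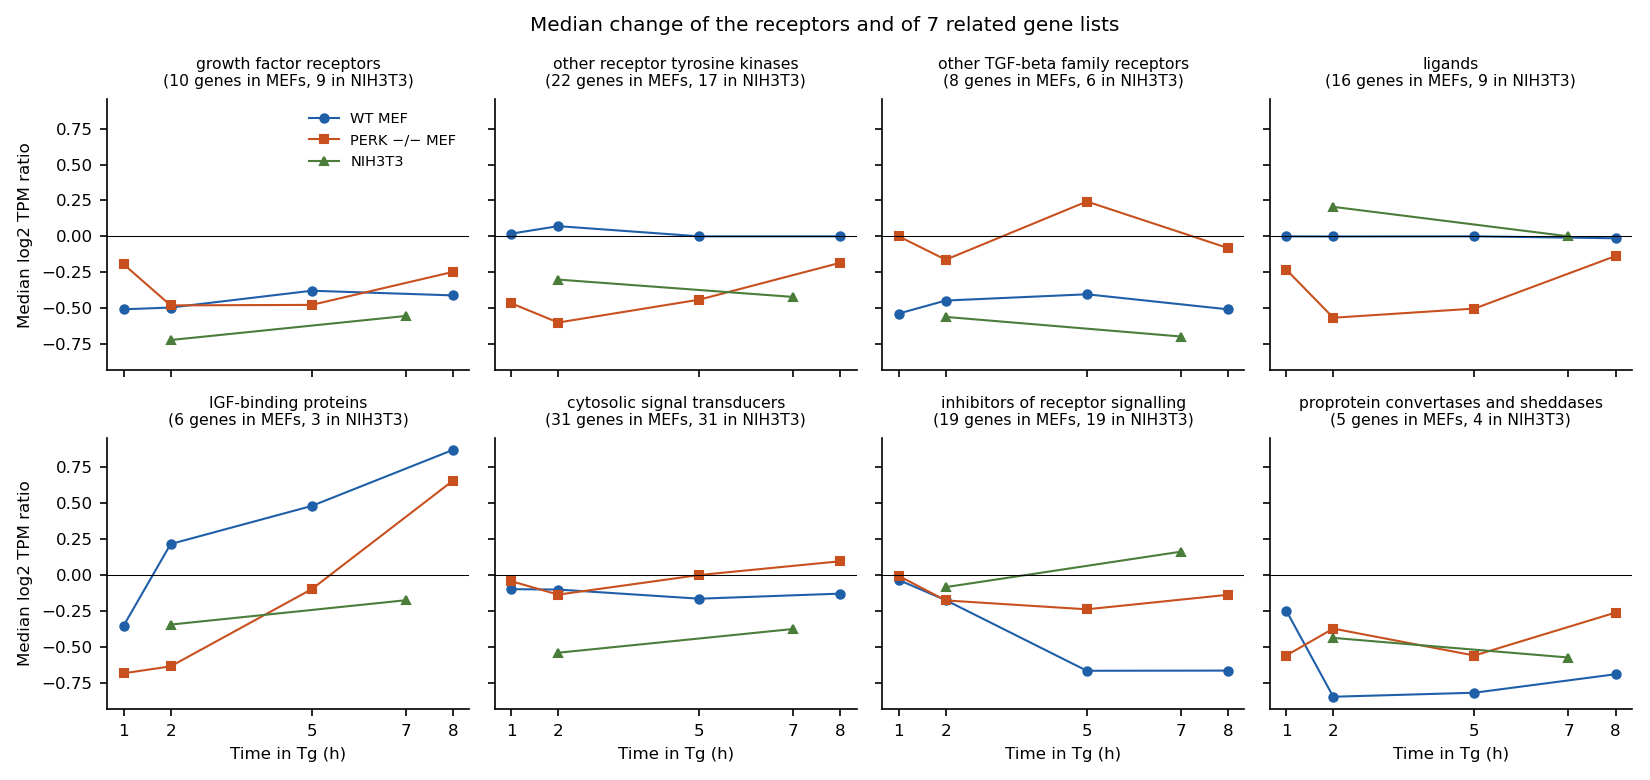
Median log2 TPM ratio to the control, against the time in Tg, of the receptors and of 7 related lists in WT MEFs (circles), PERK −/− MEFs (squares) and NIH3T3 cells (triangles). TPM under 4 were raised to 4. The medians of the 10 receptors lie below 0 in all 10 Tg libraries, those of the transducers inside the cell stay between −0.16 and 0.10 in MEFs, and those of the IGF-binding proteins end above 0 in both genotypes.

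Finally, genes whose levels over the 10 MEF libraries were most like the mean profile of the 10 receptors were sought among 5989 genes with a mean of at least 16 TPM, by Pearson's r of log2 TPM. The closest were Lamp1, a lysosomal membrane protein (r = 0.97), Aplp2, a relative of the amyloid precursor (0.95), Adam9, a membrane protease (0.94), P3h4, a partner of collagen hydroxylases (0.93), and Cdk4, a cyclin-dependent kinase (0.93). Lamp1 had 820 TPM in the WT control and 399 to 434 TPM in Tg, and 912 and then 521 to 647 TPM in PERK −/− MEFs. These libraries share their controls, and the r values are descriptions over 10 points. Likeness among the receptors was uneven. The r of a member with the mean of the other 9 ran from −0.29 for Pdgfra to 0.67 for Tgfbr1. Profiles were centred but not scaled, so receptors with a wide range, such as Pdgfra (0.27 to 10.8 TPM), weigh more in these means. Taken singly, each receptor but Insr (0.37) had a closest other receptor at an r between 0.71 (Fgfr1 with Egfr) and 0.85 (Met with Tgfbr1).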

How the data were processed

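The 13 libraries held ribosome footprints, with 1 library for each condition. The authors took reads of 22 to 34 nt, discarded those from rRNA and tRNA (STAR), mapped the remainder by Bowtie2 to mm10 coding sequences (RefSeq) that had been trimmed by 30 nt at both ends, left out transcripts under 100 nt and quantified genes by RSEM. The submitters' processing notes name these tools and this build, and versions are not given in the sources used here. The authors deposited RSEM's expected count for each gene with no scaling between libraries, and RSEM's TPM, which is scaled within a library. Of the gene symbols, 25 had been turned into dates.

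Genes were kept at a mean TPM of 2 or more, separately in the MEF and NIH3T3 tables. TPM under 4 were raised to 4, and Tg was compared with the control of that genotype or line, after the study's methods. With 1 library per condition there was no test. The log2 ratio, a 2-fold threshold and exact 95% counting intervals of expected counts over library totals describe the data. The calculation was tested on simulated counts. Levels from the 2 tables were only set side by side.

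The receptors and related lists were chosen with earlier results of these data known. All 10 receptors are named. Each related list gives up to 3 genes, those with the largest log2 change in any MEF Tg library and 100 expected counts or more in both libraries. Eif2ak3, Hspa5, Atf4 and Ddit3 check genotype and treatment. Likeness was Pearson's r of log2(TPM + 1), centred per gene, and took 5 genes.

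Alternatives were a floor of 1 TPM, log2(TPM + 1), a mean TPM of 5 or more, TMM factors (edgeR), DESeq2 size factors, counts per library total, counts thinned to the smallest library and a 1.5-fold threshold. Count-based settings were put on each gene's TPM scale, so that the floor of 4 kept its meaning. Removing a lowess trend (fraction 0.3) on GC content or coding length, dropping the filter on mean TPM, and leaving out Pdgfra and Egfr were added after seeing the data. Coding sequences came from GENCODE transcripts of GRCm38, which held 95.9% of the genes expressed in MEFs. The tools were edgeR 4.0.16 and DESeq2 1.42.0 (R 4.3.3), pandas 2.3.3, scipy 1.17.1 and numpy 2.4.6 (Python 3.11.15), Biopython 1.88, matplotlib 3.10.9 and statsmodels 0.14.6.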

Additional observations from a re-analysis of the deposited data

Results flagged for a closer look

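Pdgfra went in opposite directions in the 2 genotypes at the early times, which is why it stands here. On expected counts per library total, its log2 change at 1 h was 3.40 in WT MEFs and −0.77 in PERK −/− MEFs, and at 2 h it was 2.69 and −0.37. The WT values rest on few footprints, 11 expected counts when untreated and 35 and 15 in Tg, all under 4 TPM. The PERK −/− values rest on 191, 166 and 324 counts. With 1 library per condition the difference was not tested.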

How the results depend on the processing

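The median change of the receptors was below 0 in all 10 Tg libraries under all 11 other settings, and Met was at least 2-fold lower in the 4 treated WT libraries and Igf2r in PERK −/− MEFs at 2 and 8 h under each setting that kept the 2-fold threshold. Some of these settings could not change these results. Met and Igf2r were above 4 TPM in all MEF libraries, so a floor of 1 TPM and the filters on mean TPM left their values as they were. Dropping that filter left the MEF medians unchanged too, since all 10 receptors had passed it. The PERK −/− median at 1 h came to −0.0368 (TMM factors) and −0.0374 (DESeq2 size factors). Some counts moved, and the cause was not tested. The receptors at least 2-fold lower in WT MEFs numbered 2 at 2 h with the GC trend removed, where Fgfr1 joined Met. At 5 and 8 h Igf2r made them 2 with TMM factors, DESeq2 size factors or the coding length trend removed, and Igf2r and Fgfr1 made them 3 with the GC trend removed. In NIH3T3 cells none (0) was lower at 2 h with log2(TPM + 1), TMM factors, DESeq2 size factors, counts per library total, thinned counts or either trend removed, and 0 at 7 h with the same settings other than counts per library total and thinned counts. Pdgfra made 1 receptor higher in WT MEFs at 1 and 5 h with a floor of 1 TPM, and 1 at 1, 2 and 5 h with log2(TPM + 1). Between the untreated genotypes, 1 receptor (Fgfr1) was lower with TMM factors, DESeq2 size factors, thinned counts or either trend removed, and 0 were higher with TMM factors, DESeq2 size factors, either trend removed or a mean TPM of at least 5. A threshold of 1.5-fold gave 4, 5, 3 and 4 lower in WT MEFs, 2, 2, 3 and 4 in PERK −/− MEFs, 7 and 3 in NIH3T3 cells, and 1 lower and 2 higher between the untreated genotypes. The 3 alternatives on GC, coding length and the mean TPM filter, and the median without Pdgfra and Egfr, were chosen after seeing the data. No change of a single receptor past 2-fold reversed. No paired analysis was possible because each condition was 1 library, and for the same reason no replicate could be left out. Depth limits Pdgfra in WT MEFs (11 to 51 expected counts), Egfr in NIH3T3 cells (3, 1 and 1 counts) and all receptors in the smallest library, WT at 2 h.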
